A study of Saccharomyces cerevisiae with 4 samples.

Results

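The genes described here encode the yeast translation initiation factors eIF1, eIF1A, eIF2 and the core of eIF3, 10 genes chosen by their systematic names from the 6207 gene rows of a microarray series on budding yeast (Saccharomyces cerevisiae) lacking LOC1. They are SUI1 (YNL244C) for eIF1 and TIF11 (YMR260C) for eIF1A. The subunits of eIF2 are encoded by SUI2 (YJR007W), SUI3 (YPL237W) and GCD11 (YER025W). The core subunits of eIF3 are encoded by RPG1 (YBR079C), PRT1 (YOR361C), NIP1 (YMR309C), TIF34 (YMR146C) and TIF35 (YDR429C). All 10 had a value on every array. Each of the 4 arrays set RNA of a LOC1 knockout culture directly against RNA of a wild-type culture, in different dyes. Per the labels, knockout cells were strain PSY3262 and wild-type cells strain PSY3259. Cultures of 50 mL in YPD at 30 °C were harvested in early log phase, at an optical density of 0.2 to 0.4, and the 4 replicates were processed independently. The labels name a single strain per genotype, so the replicates share their strain, and the sources used here do not give the deletion allele, the mating type or the marker genes. On array 4 the strain tag of both channels reads PSY3262, while the source description gives wild type for the second channel, and the description was followed.

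Translation of most yeast mRNAs starts when a small ribosomal subunit carrying the initiator tRNA scans the mRNA from its cap to a start codon. The subunits of eIF2, with GTP, bring the initiator tRNA, and eIF1 and eIF1A hold the small subunit in an open form that scans and then help it settle on the start codon. The complex eIF3 binds the small subunit from its solvent side and holds the other factors and the mRNA in place. These factors are needed for growth in yeast, and several were found in selections for altered start codon choice, which gave the sui genes their name. Loc1, the protein missing from the knockout, binds RNA in the nucleus and is known for its roles in building large ribosomal subunits and in carrying ASH1 mRNA to the bud.

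The direction of the ratios was read from the LOC1 row, because the dye labels did not settle it. The knockout carried Cy5 on arrays 1 and 4, and it carried Cy3 on the other arrays, per the labels. The deposited LOC1 values were negative on array 1 (-1.20) and array 3 (-1.07), and positive on array 2 (0.972) and array 4 (1.31). Arrays 1 and 4 correlated at r = -0.723 and arrays 2 and 3 at r = -0.612 across 6191 genes without LOC1, although each pair shares its labelled orientation. Arrays 2 and 4 were therefore turned, which places LOC1 below 0 on every array, and "higher" and "lower" mean higher and lower in the knockout under this likely direction. Under the opposite sign 3 of the 10 genes would be higher and 1 lower, and each direction given here would be reversed. Values are log ratios in the deposited units, of which the base is not stated. Folds are given as "if base 10", since the values stop at exactly 2 in size, which would be a 100-fold ratio in base 10 but only a 4-fold ratio in base 2.

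Expression of these factor genes did not move in a single direction in the knockout. TIF11 was higher, by 0.175 ± 0.0388 log units (SD, n = 4). The eIF3 genes RPG1 and PRT1 and the eIF2 gene GCD11 were lower, by 0.07 to 0.10 log units in size, and the remaining 6 genes did not pass the test. A gene passed where the adjusted p of limma, fitted over all 6205 genes with a value on at least 3 arrays, was under 0.05. Thus 1 of 10 genes was higher and 3 of 10 were lower, where 22.5% of all genes tested were higher and 21.7% were lower (44.2% in either direction). Both counts lie near these background shares. The median of the means of the 10 genes was -0.0536 log units, against 0.0019 over all genes. The calls of RPG1, PRT1 and GCD11 changed with the arrays used, as did those of NIP1, TIF34 and TIF35.

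**Figure D1:**
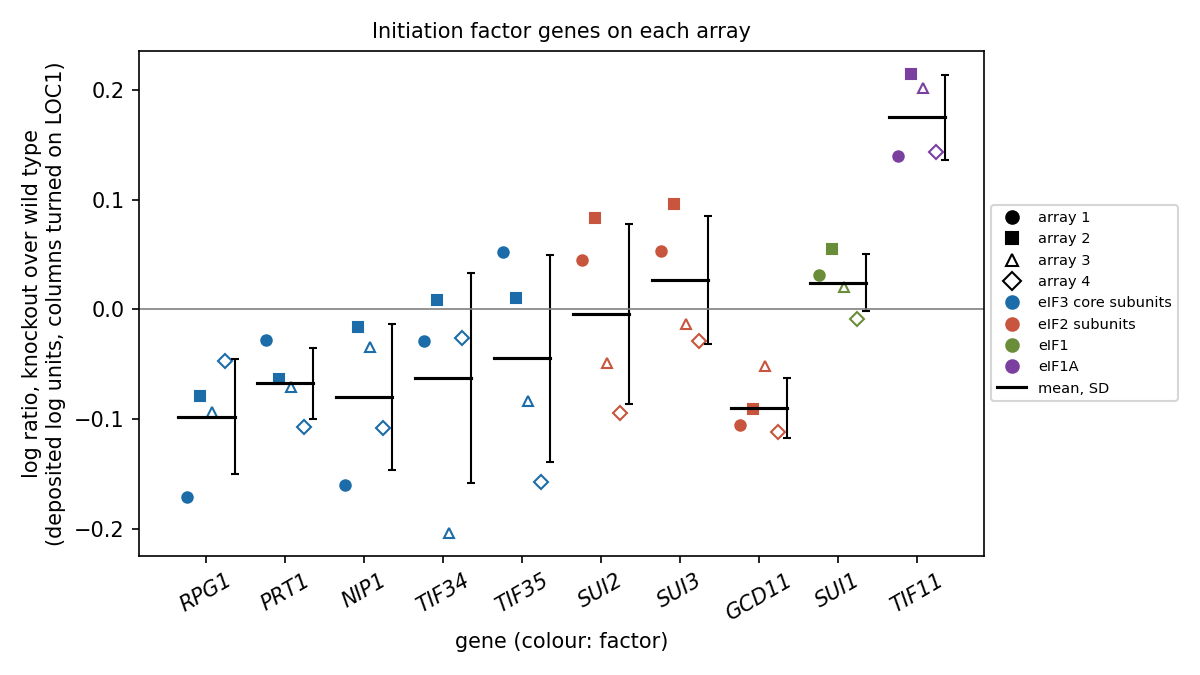
Log ratio of knockout over wild type (deposited log units) on each of the 4 arrays for the 10 initiation factor genes, coloured by factor. Black lines are means and bars SDs over 4 arrays. TIF11 lies between 0.140 and 0.215, above every value of the other genes, and RPG1, PRT1, NIP1 and GCD11 lie below 0 on every array.

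TIF11 encodes eIF1A, which binds the small subunit at the site where the next tRNA will enter. The log ratios of TIF11 were 0.140, 0.215, 0.202 and 0.144 on arrays 1 to 4. All lay above 0, and on every array TIF11 was the highest of the 10 genes. The mean corresponds to a 1.50-fold higher level if base 10 (1.13-fold if base 2), with a 95% interval of 0.119 to 0.231 log units and an adjusted p of 0.00108 in limma. Of the 6205 genes tested, 361 had a higher mean. The call stood with each array left out in turn, where the mean ran between 0.162 and 0.187 log units. It was lost only where the columns were turned by the dye labels in place of LOC1, at 0.0023 log units (adjusted p = 1.00), a setting under which 0.0161% of all genes passed.

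SUI1 encodes eIF1, the partner of eIF1A on the small subunit, where it sits near the initiator tRNA and guards start codon choice. On arrays 1 to 4 it had log ratios of 0.0313, 0.0547, 0.0202 and -0.0087. They lay close to 0 on every array, and 3 of 4 were above it. The mean was 0.0244 ± 0.0263 log units (SD, n = 4), with a 95% interval of -0.0277 to 0.0764 and an adjusted p of 0.411 in limma. The log ratio of TIF11 exceeded that of SUI1 on each array, by 0.109, 0.160, 0.182 and 0.152 log units. The mean of this difference was 0.151 ± 0.0307 log units (SD, n = 4). An exact two-sided sign-flip permutation test gave p = 0.125, the smallest that 4 arrays allow, so this test cannot reach 0.05.

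Of the genes of eIF2, GCD11 fell, and SUI2 and SUI3 did not pass. GCD11 encodes the gamma subunit, which binds GTP and the initiator tRNA. Its log ratios were -0.105, -0.0909, -0.0515 and -0.112 on arrays 1 to 4. All were below 0 and close together. The mean was -0.0899 ± 0.0271 (SD, n = 4), with an adjusted p of 0.0140 in limma, and the level was 1.23-fold lower if base 10. The call of GCD11 was lost without replicate 1 (-0.0848, adjusted p = 0.0515) and without replicate 4 (-0.0825, adjusted p = 0.0587), while the mean hardly moved.

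SUI2 encodes the alpha subunit, which the kinase Gcn2 phosphorylates when amino acids are short. Log ratios of SUI2 were 0.0448, 0.0833, -0.0491 and -0.0945. SUI3 encodes the beta subunit, which contacts eIF5 and eIF2B, and its log ratios were 0.0529, 0.0957, -0.0132 and -0.0287. Both genes lay above 0 on arrays 1 and 2 and below 0 on arrays 3 and 4. The mean of SUI2 was -0.0039 ± 0.0821 log units (95% interval -0.0795 to 0.0717, adjusted p = 0.934 in limma). The mean of SUI3 was 0.0267 ± 0.0581 log units (95% interval -0.0369 to 0.0902, adjusted p = 0.462 in limma), and without replicate 2 it was 0.0036 log units. Within each array SUI3 lay above SUI2, by 0.0081 to 0.0658 log units.

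On every array GCD11 was also the lowest of the eIF2 genes. SUI3 exceeded GCD11 by 0.158, 0.187, 0.0383 and 0.0834 log units on arrays 1 to 4. SUI2 exceeded it by 0.150, 0.174, 0.0024 and 0.0176 log units. The gap was wide on arrays 1 and 2 and narrow on arrays 3 and 4. The exact sign-flip permutation p was 0.125 for both differences, the smallest possible.

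Among the genes of eIF3, all 5 means were below 0, as were 3059 of the 6205 means over all genes tested. The eIF3 means ran from -0.0978 for RPG1 to -0.0447 for TIF35, with a median of -0.0675 log units. RPG1, also named TIF32, encodes the large a subunit, a scaffold for the other subunits that also binds the small ribosomal subunit. Log ratios of RPG1 were -0.172, -0.0793, -0.0934 and -0.0472. All lay below 0, with array 1 lowest. The mean was -0.0978 ± 0.0528 (SD, n = 4), with an adjusted p of 0.0188 in limma, and the level was 1.25-fold lower if base 10. This was the lowest mean of the 10 genes, and 1040 of the 6205 genes tested were lower still. The call was lost without replicate 1 (-0.0733, adjusted p = 0.0720) and without replicate 3 (-0.0993, adjusted p = 0.0625).

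PRT1 encodes the b subunit, which carries an RNA recognition motif and joins the scaffold to the smaller subunits. Its log ratios were -0.0283, -0.0640, -0.0704 and -0.107. All were below 0, with array 1 nearest to it and array 4 farthest. The mean was -0.0675 ± 0.0323 (SD, n = 4), which is 1.17-fold lower if base 10, and the adjusted p of 0.0462 in limma lay just under the threshold. Leaving out any of the arrays took the adjusted p to between 0.0549 and 0.173, so the call was lost with each array left out, although PRT1 passed on arrays 3 and 4 alone (-0.0888, adjusted p = 0.0289).

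NIP1 encodes the c subunit, which binds eIF1 and eIF5. NIP1 had log ratios of -0.160, -0.0163, -0.0341 and -0.109. All were below 0, with arrays 1 and 4 lower than arrays 2 and 3. The mean of -0.0797 ± 0.0667 log units (SD, n = 4) had an adjusted p of 0.0571 in limma and a 95% interval of -0.147 to -0.0121, so NIP1 stood just outside the threshold where PRT1, with a mean nearer 0, stood just inside. Arrays 1 and 4 are those on which the knockout carried Cy5 per the labels, which did not settle the direction of the ratios. The part of the dye in the spread of NIP1 was not tested. NIP1 passed where a term for the labelled dye orientation was added (adjusted p = 0.0360), a setting in which PRT1 did not (adjusted p = 0.0715). With a dye term by the deposited sign of LOC1 instead, chosen after seeing the data, NIP1 did not pass (adjusted p = 0.094). Without replicate 2 NIP1 passed (-0.101, adjusted p = 0.0350).

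TIF34 and TIF35 encode the small i and g subunits, a propeller-shaped protein and an RNA-binding protein that bind each other and PRT1's product. The log ratios of TIF34 were -0.0288, 0.0088, -0.204 and -0.0266. Array 3 alone was far from 0, and the other arrays lay within 0.03 of it. The mean was -0.0626 ± 0.0957 log units (SD, n = 4), with a 95% interval of -0.146 to 0.0206 and an adjusted p of 0.191 in limma. Without replicate 3 the mean was -0.0155 log units. For TIF35 the log ratios were 0.0524, 0.0099, -0.0834 and -0.158. They lay above 0 on arrays 1 and 2 and below 0 on arrays 3 and 4, as in SUI2 and SUI3. The mean was -0.0447 ± 0.0943 log units (SD, n = 4), with a 95% interval of -0.127 to 0.0377 and an adjusted p of 0.338 in limma. Without replicate 4 the mean was -0.0070 log units.

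Ordered by mean, the genes ran from TIF11 through SUI3, SUI1, SUI2, TIF35, TIF34, PRT1, NIP1 and GCD11 to RPG1. Of the 9 steps between neighbours in this order, only that between TIF11 and SUI3 separated genes whose 4 values did not overlap. The other neighbours overlapped in their array values. The same sign on every array was seen for 5 of the 10 genes, TIF11 above 0 and RPG1, PRT1, NIP1 and GCD11 below. Over all genes tested 56.6% kept a sign, 28.5% above 0 and 28.0% below, shares that turning the arrays on these data partly builds in. Among all 45 pairs, 15 did not overlap, 9 of which involved TIF11. The other 6 set SUI1 above PRT1, NIP1, GCD11 and RPG1, and SUI3 above GCD11 and RPG1. How often pairs of other genes overlap was not computed, so these counts are not shown to be particular to the 10 genes.

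The arrays differed in how many of the genes lay below 0. On arrays 1 and 2, 5 and 4 of the 10 genes were below 0, while on arrays 3 and 4 it was 8 and 9. Of the 6205 genes tested, 2960, 2881, 3067 and 3349 were below 0 on arrays 1 to 4. The medians of the 10 genes were 0.0015 and 0.0094 on arrays 1 and 2, and -0.0503 and -0.0708 on arrays 3 and 4. Over all genes the medians were 0.0070, 0.0107, 0.0013 and -0.0119 on arrays 1 to 4. The shift was not particular to the 10 genes. In the lists of other translation factors below, medians on arrays 1 to 4 were -0.0126, 0.0019, -0.0824 and -0.0744 for 7 partners. They were -0.0739, -0.0468, -0.160 and -0.138 for the cap-binding list. The elongation list (-0.0254, -0.109, -0.0755 and -0.0764) and the eIF2B list (0.0913, 0.0190, 0.0315 and -0.0162) did not split this way. TIF35, SUI2 and SUI3, 3 of the 10, were above 0 on arrays 1 and 2 and below 0 on arrays 3 and 4, and 5.28% of the 6192 genes with a value on every array had this pattern. The reverse pattern was seen in 0 of the 10 and in 2.71% of all these genes. Other splits of the arrays were not counted, and no test was made of these counts. For ratios deposited as Cy5 over Cy3, LOC1 and the dye labels point the same way on arrays 1 and 2, and for the inverse ratio they do so on arrays 3 and 4. The part of the labelling in the difference between the pairs was not tested.

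**Figure D2:**
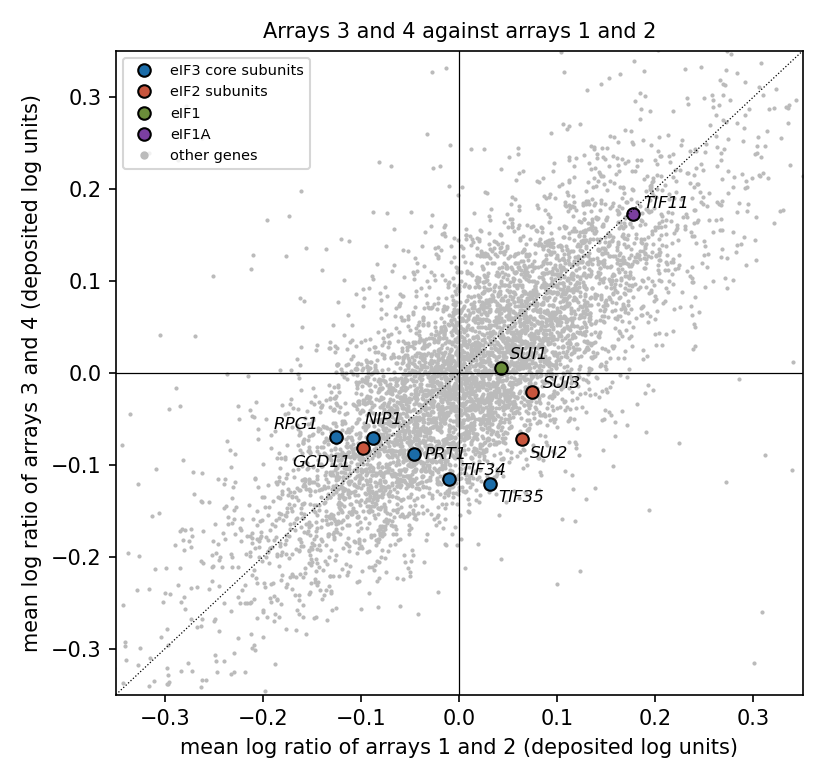
Mean log ratio of arrays 3 and 4 against that of arrays 1 and 2, in deposited log units, for the 10 genes (coloured by factor) and all other genes (grey, 157 of which lie beyond the axes). The dotted line marks equal values. TIF11 lies on it at 0.177 and 0.173, and TIF35, SUI2 and SUI3 lie right of 0 on the horizontal axis and below 0 on the vertical axis.

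In limma fits of the array pairs, TIF11 was the gene that passed in both. Each of these fits had only 2 arrays, so its p-values rest mostly on the spread that limma shares over all genes. On arrays 1 and 2 alone it was higher at 0.177 log units (adjusted p = 0.0339), and 0 of the 10 genes were lower at the adjusted threshold, with 2 lower at an unadjusted p under 0.05. Over all genes 10.2% were higher and 8.93% lower in that fit. On arrays 3 and 4 alone TIF11 was higher at 0.173 log units (adjusted p = 0.00131), and PRT1, TIF34, TIF35 and GCD11 were lower, where 22.2% of all genes were higher and 24.4% lower. TIF35 averaged -0.121 log units there (adjusted p = 0.00952), against 0.0312 on arrays 1 and 2. The difference between the array pairs was not itself tested.

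The other genes of the initiation pathway were read from lists of translation factors, and the counts below stand against 22.5% higher and 21.7% lower over all genes tested. A list of 7 partners covers eIF2 assembly, the scanning complex, subunit joining and recycling. Of these 7 genes, 0 rose and 1 fell by limma (14.3%), with 0 and 2 at an unadjusted p under 0.05. Their median was -0.0423 log units. FUN12, which encodes eIF5B and joins the ribosomal subunits, fell by 0.188 log units (-0.158, -0.137, -0.197 and -0.258 on arrays 1 to 4, adjusted p = 0.00120). YGR054W, which encodes eIF2A, averaged -0.0730 log units (adjusted p = 0.0524). HCR1, the loosely bound j subunit of eIF3, averaged -0.0558 log units (adjusted p = 0.0990). TIF5, which encodes the eIF2 GTPase activator eIF5, averaged -0.0423 log units (adjusted p = 0.318). HCR1 and TIF5 were named after their values were seen.

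Of 9 genes for eIF2B, which reloads eIF2 with GTP, and for the Gcn2 kinase branch that acts on eIF2, 2 rose (22.2%) and 3 fell (33.3%), with a median of 0.0527 log units, where 22.5% of all genes rose and 21.7% fell. GCN4, the transcription activator whose translation depends on how much eIF2 is active, rose by 0.264 ± 0.0544 log units (0.320, 0.300, 0.209 and 0.226 on arrays 1 to 4, adjusted p = 0.00029 in limma). GCN20 rose by 0.111 and GCN1 fell by 0.118 log units, and their products form a complex that helps activate Gcn2. The eIF2B genes GCD2 at -0.101 and GCD1 at -0.0908 also fell. The other eIF2B genes, GCN3 at 0.0731, GCD7 at 0.055 and GCD6 at 0.0527, averaged above 0 and did not pass. All of these eIF2B genes were named after their values were seen. GCN2 itself averaged -0.0183 log units and did not pass (adjusted p = 0.523), and it too was named after its value was seen.

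Among 12 genes for cap-binding and mRNA-activating factors, 0 rose and 9 fell by limma (75.0%, against 21.7% of all genes), with 1 and 9 at an unadjusted p under 0.05 and a median of -0.103 log units. TIF4631 and TIF4632, which encode the eIF4G scaffold proteins, fell by 0.232 and 0.171 log units. DED1, a helicase of scanning, fell by 0.178. CDC33, which encodes the cap-binding protein eIF4E, averaged 0.0547 log units. It lay above 0 on every array and did not pass (adjusted p = 0.0757 in limma). The list also holds STM1, a ribosome-bound protein that is not an initiation factor, and STM1 did not pass. CAF20 at -0.108 and EAP1 at -0.0976, among the fallen genes, encode proteins that bind eIF4E and repress initiation. CDC33, CAF20 and EAP1 were named after their values were seen. Among 12 genes for elongation and release, 0 rose and 5 fell by limma (41.7%, against 21.7% of all genes), with 0 and 6 at an unadjusted p under 0.05 and a median of -0.0605 log units. TEF4, a subunit of the exchange factor of eEF1A, fell by 0.235 log units, YEF3, the fungal elongation factor eEF3, by 0.170, and EFT2, which encodes eEF2, by 0.118. CAM1 and EFT1 were the other fallen members, named after their values were seen. TIF1 with TIF2, TEF1 with TEF2, and EFT1 with EFT2 are near-identical copies that may share signal on the array. The differences between the lists were not tested.

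**Figure D3:**
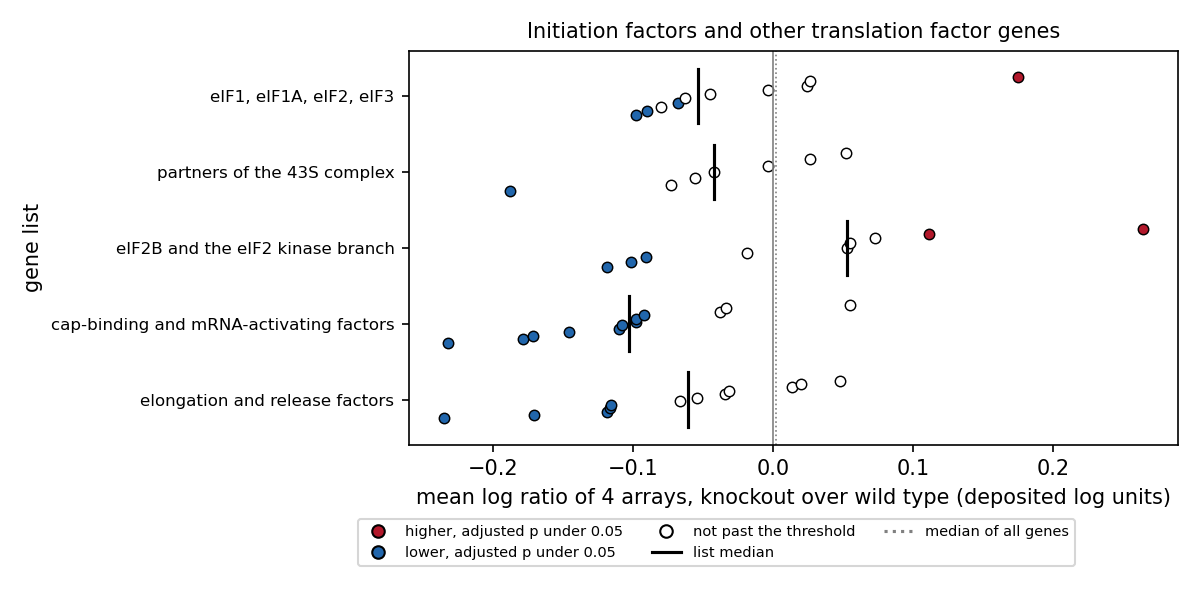
Mean log ratio of 4 arrays, knockout over wild type (deposited log units), for the 10 initiation factor genes and for the 4 lists of other translation factor genes. Each point is a gene, filled where it passed the threshold, the vertical black line is the list's median, and the dotted line is the median of all genes (0.0019). TIF11 is the one filled point above 0 in the top row, and the cap-binding list has 9 of 12 points filled below 0.

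Genes with a pattern close to these factors were found by the root mean square difference over the 4 arrays, among genes with a symbol outside the 10. Nearest to TIF11 were HHT1, a histone H3 gene, at a difference of 0.0132 log units, PET100, an assembly factor of cytochrome c oxidase, at 0.0184, and GOR1, a glyoxylate reductase gene, at 0.0212. Nearest to SUI1 were TMA64, which encodes eIF2D, at 0.0047, BTT1 at 0.0050 and CBP1 at 0.0116. Nearest to the mean of the eIF3 genes were RPL4A, a gene of a large-subunit ribosomal protein, at 0.0065, ALG6 at 0.0096 and GTT3 at 0.0099. Nearest to the mean of the eIF2 genes were MRPS8, NAM7 and DCG1, at 0.0097 to 0.0099. With 4 arrays and values near 0, a small difference says only that the ratios were alike.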

How the data were processed

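The authors deposited a table of 1 log ratio per gene and array, taken here as log10 from the values alone. The sources used here give no scanner, background correction, normalization or log base. Of 6210 rows, 3 controls were left out. Probe intensities were not used here, so precision is limited by having 4 arrays. RefSeq genes of assembly R64 gave symbols and gene order, and 5654 systematic names matched. Each column was turned to place LOC1 below 0. Genes with at least 3 values were fitted with limma 3.58.1 (lmFit, eBayes) under R 4.3.3. The two-sided test set each gene's mean against 0, and p-values were adjusted over all genes by the method of Benjamini and Hochberg. The fit was run on simulated data with independent noise for each gene and array. That check does not cover errors shared within an array or dye, or the turning of columns. Where the labels call the replicates biological, p-values measure the spread between these cultures of the same strains. The 10 genes, the lists and the tests were chosen with earlier results of these data known. Named genes are all 10 members and, per list of other genes, the 3 that passed with the greatest change, or the 2 of smallest p if fewer than 2 passed. For TIF11, SUI1 and the means of eIF2 and eIF3, the 3 genes with the nearest values are also named.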

Additional observations from a re-analysis of the deposited data

How the results depend on the processing

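The rise of TIF11 passed in 13 of 14 alternatives, with adjusted p between 0.000407 and 0.0339 in those. The falls depended on the arrays: leaving out an array gave 0 to 3 lower genes of 10 (0 without replicate 1, where 3 had an unadjusted p under 0.05 in limma, 1 without replicate 3 and 1 without replicate 4), where 17.2%, 21.0%, 15.9% and 16.0% of all genes were lower without replicates 1 to 4. An unmoderated test of the same values gave 1 lower gene of 10, GCD11, with 674 genes higher and 706 lower in all. Arrays 1 and 2 alone gave 0 lower genes of 10, with 631 higher and 554 lower in all, and placed TIF35 at 0.0312 and SUI2 at 0.0640. Arrays 3 and 4 alone placed SUI3 at -0.0210. Turning the columns by the dye labels gave 0 higher and 0 lower of 10 (0 and 0 unadjusted), 1 gene higher and 0 lower in all (38 and 34 unadjusted), and placed PRT1 at 0.0213, TIF34 at 0.0526, TIF35 at 0.0759 and SUI2 at 0.0679. Leaving out an array placed SUI2 between -0.0329 and 0.0263. A dye term by the deposited sign of LOC1, chosen after seeing the data, kept RPG1 and GCD11 and lost PRT1 (adjusted p = 0.0784). NIP1 did not pass with that term (adjusted p = 0.094). NIP1 passed with centred arrays (adjusted p = 0.0495) and with robust eBayes (adjusted p = 0.0462). The causes were not tested. Each array already sets a knockout culture against a wild-type culture, so the main test of the mean log ratio is itself paired by array.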

Other observations

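The genes next to the 10 initiation factor genes, in the order of the RefSeq table, were read after the other values were seen. Of 20 such neighbours, 5 were higher and 5 lower by limma, where 22.5% and 21.7% of all genes were. TIF11, which rose, lies beside TPS3, a regulatory subunit gene of trehalose synthesis, which fell by 0.162 log units, and TRM732, which averaged 0.0369 and did not pass. RPG1, which fell, lies beside the cell wall gene ECM33, which fell by 0.228 log units, and SEC18, which averaged 0.0483 and did not pass. TIF35 and SUI1, which did not pass, lie beside the protease gene CYM1 and the endocytosis gene SLA2, which fell by 0.323 and 0.217 log units. SUI3 lies beside YAR1, which rose by 0.179 log units and encodes a chaperone of the small-subunit protein Rps3. Also higher were PDE2 beside PRT1, UPA2 beside NIP1, LDO45 beside TIF34 and POL31 beside SUI2. YAT2 beside GCD11 was lower.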
